A study of Mus musculus with 10 samples.

Results

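Transcripts of the Slc25 mitochondrial carrier family were followed in mouse liver, across loss of Pml and a short fast. Members were chosen by gene symbol: every probe set whose single gene symbol began with Slc25a, which gave 46 of the 22180 genes that had a probe set of their own. Each member had exactly 1 such probe set. The livers came from female BALB/cByJ mice, 3 months old, that were Pml wt (wild type) or Pml KO (knockout). Food was either freely available (ad libitum, called fed here; 2 wild type and 2 knockout arrays) or had been removed for 6 h (fasted; 3 wild type and 3 knockout arrays). All mice had free access to water. The submitters' treatment text describes food removal for every sample, fed ones included, so the feeding state rests on sample titles and source names. RNA of each sample was hybridised to an Affymetrix Mouse Gene 2.1 ST array, which carries probes along the exons of each transcript. The labels describe neither the deleted allele of Pml nor whether each array is a separate animal. The p values therefore set group differences against the scatter of these samples within groups, which may be partly technical.

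Slc25 proteins are small carriers, most of them in the inner mitochondrial membrane, which ions and most metabolites cannot cross unaided. Each carrier exchanges or imports particular molecules: ADP for ATP, phosphate, citrate, malate, amino acids, acylcarnitines, nucleotides, cofactors or metals. In liver they link the pathways divided between the matrix and the cytosol. Fatty acid oxidation needs acylcarnitine import, gluconeogenesis and the urea cycle need dicarboxylate, aspartate and ornithine exchange, and lipogenesis needs citrate export. Pml encodes the protein that organises PML nuclear bodies, and the comparisons asked how its loss and a short fast, alone and together, bear on liver transcripts.

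Levels are given as log2 of the deposited intensity, so a difference of 1 is a doubling, and a level of one gene says nothing about that of another, since probe sets differ. A gene was tested when its probe set lay above the median of the array (between 5.44 and 5.57 on the log2 scale) on at least 2 arrays, which held for 13942 genes. A member was called when limma gave an adjusted p under 0.05 over all of these genes. Pml itself read 8.37 and 8.22 with wild type fed, 6.91 and 6.41 with knockout fed, 7.72, 7.50 and 8.13 with wild type fasted and 6.05, 6.35 and 6.14 with knockout fasted. It was lower in knockout whether fed or fasted (fed -1.63, SE 0.22, adjusted p = 0.0398; fasted -1.60, SE 0.18, adjusted p = 0.0043). Whether its probes lie within the deleted sequence is not known here.

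The fasted knockout arrays were not alike. The clock transcription factor gene Arntl read 4.60, 4.53 and 8.87 in fasted knockout replicates 1, 2 and 3, against 9.29, 9.04 and 9.16 in fasted wild type, 7.50 and 7.10 in fed wild type, and 5.72 and 6.02 where knockout was fed. A clock score, the mean signed deviation of 13 clock genes, was -0.99, -0.91 and 1.12 in fasted knockout replicates 1, 2 and 3. It lay between 0.92 and 1.16 in fasted wild type, at -0.22 and -0.48 in fed wild type, and fed knockout had -0.81 and -0.79. By these genes, replicates 1 and 2 of the fasted knockout lay on the side of the fed arrays, with scores below all 4 of them, and replicate 3 lay with fasted wild type. The labels give no time of day, so the feeding state, the time of sampling and the state of the clock cannot be told apart in wild type, and calls that use fasted knockout arrays are also given without replicates 1 and 2. For Pml in fasted liver the difference was then -1.65 (SE 0.27, adjusted p = 0.0708).

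All 8 hepatocyte markers (such as Alb, Ttr and Hnf4a) lay above the median on every array. So did all 7 macrophage markers, all 6 of sinusoidal endothelium and 5 of 6 of stellate cells, 1 of 4 of cholangiocytes and 1 of 5 of T and NK cells, while no marker of B cells, adipocytes or muscle did so. In bulk tissue, fewer cells of a type and less RNA per cell cannot be told apart.

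Of the 46 members, 39 were tested, and 37 of these lay above the median on all 10 arrays. The exceptions were Slc25a14 (6 arrays) and Slc25a35 (8 arrays; 1 of 3 in fasted wild type, all others in the remaining groups). The other 7 members, Slc25a24, Slc25a29, Slc25a31, Slc25a41, Slc25a43, Slc25a53 and Slc25a54, lay above the median on no array and read between 3.07 and 5.47. Among them is Slc25a31, the ADP/ATP carrier known from the germ line. A further probe set, shared with the gene Rangrf, carries the name of Slc25a35 too and read between 4.53 and 5.54, and was not used. Family members also stand side by side on the chromosomes. In 4 pairs of adjacent protein coding genes of the RefSeq gene table (GRCm38.p6), a dim member lay beside another member, and in 3 of these the neighbour was above the median on all 10 arrays: Slc25a47 beside Slc25a29 on chromosome 12, Slc25a23 beside Slc25a41 on chromosome 17, and Slc25a5 beside Slc25a43 on chromosome X. In the remaining pair, Slc25a54 and Slc25a24 on chromosome 3, both were dim.

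**Figure D1:**
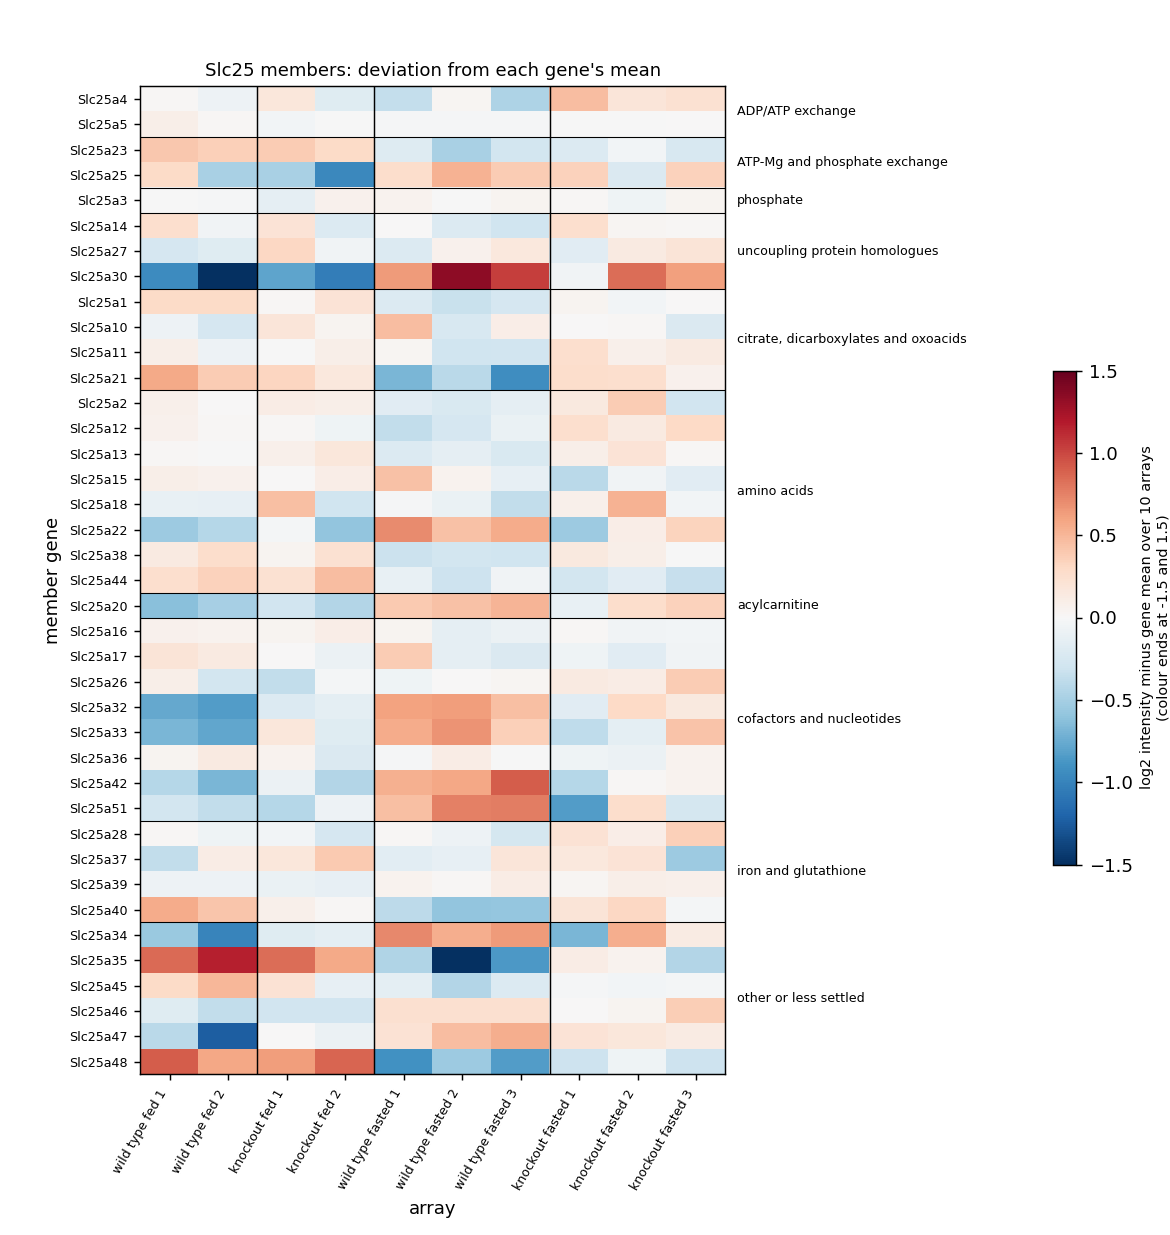
Colour shows the log2 intensity of the 39 tested members on each of the 10 arrays, minus the mean of that gene over all arrays, with members grouped by role and arrays by group. Members such as Slc25a30 and Slc25a32 are above their mean on all 3 fasted wild type arrays, and Slc25a48 and Slc25a21 are below it there.

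After 6 h without food, carriers rose and fell in nearly equal number in wild type liver. Of the 39 tested members, 10 rose and 9 fell, which is 48.7% of them, and 20 were not called. Over all 13942 genes, 21.4% were called (8.23% higher and 13.2% lower). The median difference of the members was -0.06 (all genes -0.02), and the median size of a difference, regardless of sign, was 0.46 (all genes 0.24). The fed and the fasted arrays of wild type were fully separate for 26 members (12 higher, 14 lower), beside 52.7% of all genes (23% higher, 29.7% lower). The carriers that rose include those of acylcarnitine, folate, coenzyme A, NAD, pyrimidine nucleotides and glutamate, and those that fell include carriers for citrate, oxodicarboxylates, glycine, ATP-Mg and choline.

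Among the carriers of cofactors and nucleotides, 4 of 8 tested members rose and none fell. Slc25a32, which imports folate and is linked to mitochondrial FAD, read 7.99 and 7.93 in fed wild type and 9.37, 9.39 and 9.21 in fasted wild type. The same gene read 8.56 and 8.62 in fed knockout and 8.60, 9.06 and 8.91 in fasted knockout. In wild type the fasted arrays were all well above the fed ones, and all knockout arrays lay between them. It rose 2.57-fold in wild type (1.36, SE 0.14, adjusted p = 0.000536). Slc25a42, the coenzyme A carrier, read 10.21 and 9.95 in fed and 11.17, 11.21 and 11.55 in fasted wild type, against 10.55 and 10.19 in fed and 10.21, 10.66 and 10.69 in fasted knockout. Its fasted wild type arrays stood above all others, while the fed and fasted knockout arrays overlapped. It rose 2.35-fold in wild type (1.23, SE 0.19, adjusted p = 0.0024).

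Slc25a33, a pyrimidine nucleotide carrier, read 7.65 and 7.55 in fed and 8.89, 8.998 and 8.68 in fasted wild type, against 8.50 and 8.15 in fed and 7.95, 8.18 and 8.75 in fasted knockout. Wild type separated by feeding state and knockout did not, since fasted knockout replicate 1 was below both fed knockout arrays and replicate 3 above them. The rise in wild type was 2.39-fold (1.25, SE 0.22, adjusted p = 0.0041). Slc25a51, the carrier of NAD, read 8.84 and 8.74 in fed and 9.56, 9.88 and 9.89 in fasted wild type, against 8.69 and 9.04 in fed and 8.27, 9.38 and 8.85 in fasted knockout. Its fasted wild type arrays were the highest of the 10, and fasted knockout replicate 1 was the lowest. It rose 1.98-fold in wild type (0.98, SE 0.27, adjusted p = 0.0288). The other members of the group were not called. These were Slc25a16 (-0.12) and Slc25a36 (-0.06), linked to coenzyme A and to pyrimidine nucleotides, the peroxisomal carrier Slc25a17 (-0.16) and the S-adenosylmethionine carrier Slc25a26 (0.09).

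**Figure D2:**
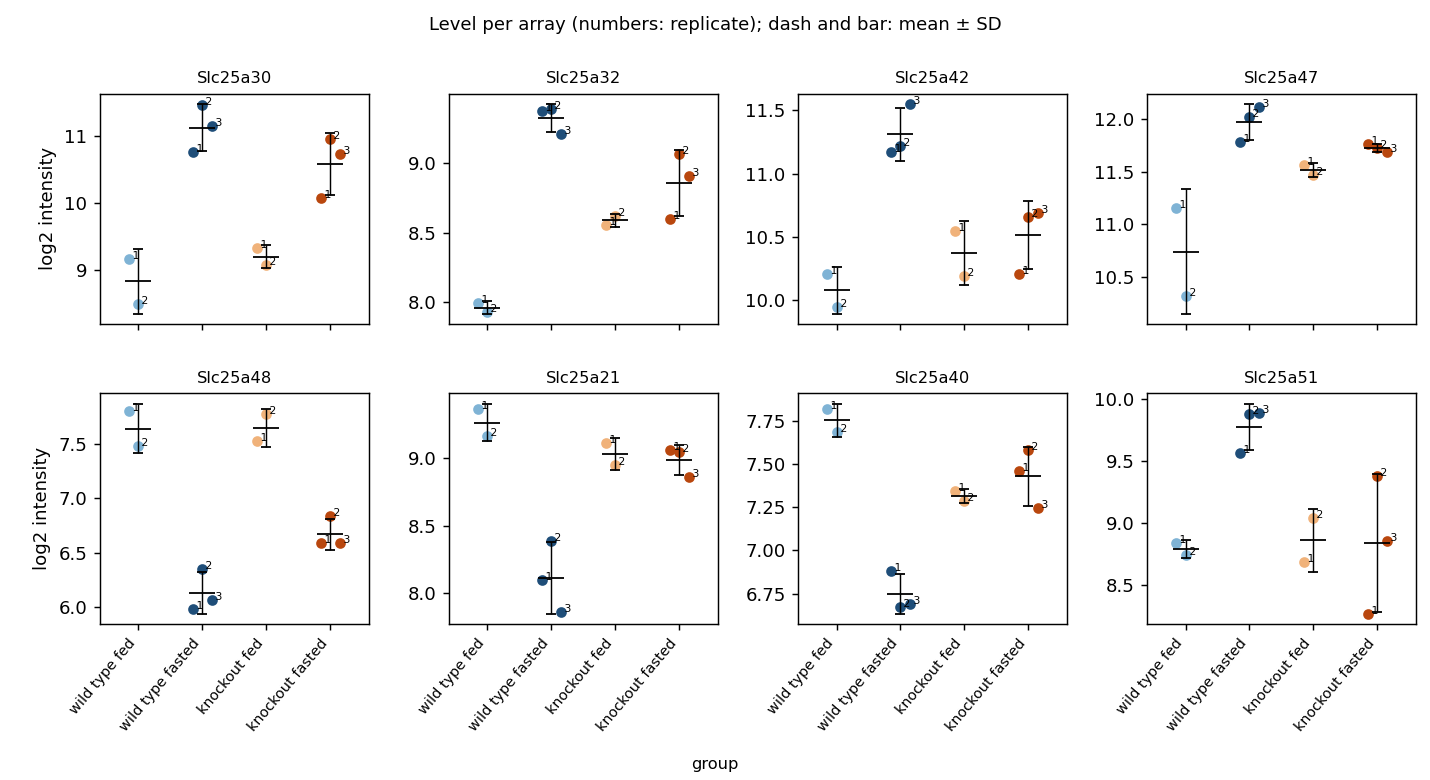
Points give the log2 intensity on each array for 8 members whose values the text gives in full, by group, with the replicate number beside each point, and dashes and bars give the mean and SD of a group (n = 2 fed, n = 3 fasted). For Slc25a32, Slc25a42, Slc25a21 and Slc25a40 the fasted wild type arrays stand apart from the other 3 groups, and for Slc25a48 both fasted groups lie below both fed groups.

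Slc25a20, the carnitine/acylcarnitine carrier that brings fatty acyl groups to the matrix for oxidation, rose 2.02-fold in fasted wild type (1.01, SE 0.14, adjusted p = 0.0016). Its arrays read 9.31 and 9.43 fed and 10.33, 10.37 and 10.44 fasted in wild type, and 9.65 and 9.49 fed and 9.83, 10.19 and 10.28 fasted in knockout, so that fasted arrays exceeded fed ones in both genotypes.

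The largest rise in the family was that of Slc25a30, an uncoupling protein homologue also known as kidney mitochondrial carrier protein. It read 9.17 and 8.49 in fed and 10.76, 11.46 and 11.16 in fasted wild type, against 9.33 and 9.08 in fed and 10.07, 10.96 and 10.74 in fasted knockout. Fed and fasted arrays did not overlap in either genotype. In wild type it rose 4.90-fold (2.29, SE 0.30, adjusted p = 0.0012). The other uncoupling protein homologues tested, Slc25a14 (-0.26) and Slc25a27 (0.22), were not called.

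The carriers of citrate, dicarboxylates and oxoacids held 2 members that fell of 4 tested, and none that rose. Slc25a21, which exchanges oxodicarboxylates formed in lysine and tryptophan breakdown, read 9.36 and 9.16 in fed and 8.10, 8.39 and 7.86 in fasted wild type, against 9.11 and 8.94 in fed and 9.05, 9.04 and 8.85 in fasted knockout. The fasted wild type arrays were lower than every other array, and the knockout arrays overlapped between feeding states. It fell 2.21-fold in wild type (-1.15, SE 0.16, adjusted p = 0.0015). Slc25a1, the citrate carrier that supplies acetyl units to lipogenesis, fell 1.46-fold (-0.55, SE 0.10, adjusted p = 0.0056). The dicarboxylate carrier Slc25a10 (0.27) and the oxoglutarate/malate carrier Slc25a11 (-0.19) were not called.

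Of 8 tested amino acid carriers, 1 rose and 2 fell. Slc25a22, a glutamate carrier, read 9.71 and 9.84 in fed and 10.97, 10.70 and 10.82 in fasted wild type, against 10.23 and 9.67 in fed and 9.72, 10.36 and 10.60 in fasted knockout. Wild type separated fully and knockout did not, with fasted knockout replicate 1 at the fed level. It rose 2.07-fold in wild type (1.05, SE 0.25, adjusted p = 0.0154). Slc25a38, the glycine carrier of heme synthesis, fell 1.41-fold (-0.50, SE 0.11, adjusted p = 0.0099), and Slc25a44, a carrier of branched-chain amino acids, fell 1.38-fold (-0.46, SE 0.12, adjusted p = 0.0247). The other glutamate carrier Slc25a18 (-0.05) and the ornithine carriers Slc25a15 (0.05) and Slc25a2 (-0.22) were not called. The same held for the aspartate/glutamate carriers of the malate-aspartate shuttle, Slc25a12 (-0.28, adjusted p = 0.106) and Slc25a13 (-0.20, adjusted p = 0.181).

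In the group of iron and glutathione carriers, Slc25a40, a close relative of the glutathione carrier Slc25a39, was the 1 member of 4 that changed. It read 7.82 and 7.69 in fed and 6.88, 6.67 and 6.69 in fasted wild type, against 7.34 and 7.29 in fed and 7.46, 7.58 and 7.24 in fasted knockout. Fasted wild type lay below all other arrays, fed wild type above them, and all knockout arrays stood between. It fell 2.01-fold in wild type (-1.005, SE 0.13, adjusted p = 0.0010). Slc25a39 (0.14) and the iron carriers Slc25a28 (-0.08) and Slc25a37 (0.09), known as mitoferrins, were not called.

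Among the carriers that serve ATP supply, Slc25a23 alone was called. The ADP/ATP carriers Slc25a4 (-0.23) and Slc25a5 (-0.07) and the phosphate carrier Slc25a3 (0.04) were not called in fasted wild type. Slc25a5 had the smallest range over the 10 arrays of any tested member (0.13), followed by Slc25a3 (0.195). Of the ATP-Mg carriers, which adjust the adenine nucleotide pool of the matrix, Slc25a23 fell 1.62-fold (-0.70, SE 0.12, adjusted p = 0.0037), and Slc25a25 was not called (0.48, adjusted p = 0.207).

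All 6 tested members with other or less settled cargo were called, 3 higher and 3 lower. Slc25a34 read 6.39 and 5.96 in fed and 7.67, 7.49 and 7.59 in fasted wild type, against 6.77 and 6.80 in fed and 6.26, 7.50 and 7.08 in fasted knockout. Wild type separated, and in knockout replicate 1 of the fasted arrays was below both fed arrays. It rose 2.65-fold in wild type (1.41, SE 0.29, adjusted p = 0.0092). Slc25a47, a carrier known for its expression in liver, read 11.16 and 10.32 in fed and 11.78, 12.02 and 12.11 in fasted wild type, against 11.56 and 11.47 in fed and 11.76, 11.73 and 11.68 in fasted knockout. Fed wild type replicate 2 was the lowest array by far. The rise in wild type was 2.34-fold (1.23, SE 0.21, adjusted p = 0.0038), and without that array it was 0.81 (adjusted p = 0.0132). Slc25a46, a protein of the outer membrane that acts in mitochondrial dynamics, rose 1.43-fold (0.52, SE 0.13, adjusted p = 0.0183).

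Slc25a48, linked to choline import, read 7.80 and 7.48 in fed and 5.99, 6.35 and 6.06 in fasted wild type, against 7.52 and 7.77 in fed and 6.59, 6.84 and 6.59 in fasted knockout. Fasted arrays were below fed arrays in both genotypes, and fasted knockout was above fasted wild type. It fell 2.85-fold in wild type (-1.51, SE 0.16, adjusted p = 0.00054). Slc25a35 read 6.85 and 7.18 in fed and 5.56, 4.16 and 5.14 in fasted wild type, against 6.85 and 6.57 in fed and 6.12, 6.06 and 5.57 in fasted knockout. It fell in wild type (-2.06, SE 0.35, adjusted p = 0.0036), but 2 of the 3 fasted wild type arrays were at or below the median of the array, so the size of the fall is poorly measured and no fold is given. Slc25a45 fell 1.57-fold (-0.65, SE 0.14, adjusted p = 0.0097).

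The wild type fasting calls of 12 members held under all 21 alternatives: Slc25a1, Slc25a20, Slc25a21, Slc25a23, Slc25a30, Slc25a32, Slc25a33, Slc25a35, Slc25a40, Slc25a42, Slc25a47 and Slc25a48. Fed wild type had 2 arrays, and without replicate 2 the count was 12 instead of 19. The 7 calls lost then were those of Slc25a22 (adjusted p = 0.054), Slc25a34 (0.0637), Slc25a38 (0.0674), Slc25a44 (0.12), Slc25a45 (0.0686), Slc25a46 (0.115) and Slc25a51 (0.117). Without fed wild type replicate 1, Slc25a22 (0.0955), Slc25a44 (0.0858) and Slc25a51 (0.109) were lost. Slc25a44 and Slc25a51 were also lost without fasted wild type replicate 2 (0.0773 and 0.0771), and Slc25a51 without replicate 3 (0.0791). With the clock score as a covariate those 12 stayed called, Slc25a33 with a smaller difference (0.80 instead of 1.25). Within groups this score varied mostly among the fasted knockout arrays (-0.99, -0.91 and 1.12), which therefore set most of its slope. In wild type, this fit cannot separate the clock from feeding. Of the 7 lost there, Slc25a51 (0.96), Slc25a45 (-0.65), Slc25a34 (1.22), Slc25a38 (-0.41) and Slc25a44 (-0.39) kept most of their difference. Slc25a22 (0.67) and Slc25a46 (0.28) shrank by more than 1.5 times.

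Some summed marker levels differed between fed and fasted wild type too. The macrophage sum was 11.59 to 11.86 in fed and 11.47 to 11.55 in fasted wild type, and that of B cells 6.41 to 6.66 against 5.07 to 5.61, with no B cell marker above the median on all arrays. The stellate cell sum was 12.48 to 12.53 fed and 12.56 to 12.59 fasted, and the hepatocyte sum 15.35 fed and 15.39 to 15.43 fasted. The cholangiocyte sum was 8.01 to 8.06 fed and 8.13 to 8.26 fasted, with 1 of 4 markers above the median on all arrays. These sums did not overlap, beside 52.7% of all genes whose arrays did not overlap in this comparison. The sums of sinusoidal endothelium, T and NK cells, adipocytes and muscle overlapped. Of 7 macrophage markers, 2 were called lower and none higher, beside 21.4% of all genes called. One stellate cell marker was called lower and 1 of sinusoidal endothelium higher. The part of these cell types in the differences of the carriers was not tested.

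Promoter sequences were searched because many members changed after fasting, in both directions. The RefSeq promoter table (GRCm38.p6; 250 bases before to 50 after each start, 300 in all, 32851 windows) matched 36 of the 46 members with 46 windows, 7 members having several. The E-box CACGTG, the letters that the clock factor made with Arntl is known to bind, was in 7.15% of all windows and in 8 of the 46 member windows, those of Slc25a1, Slc25a13, Slc25a14, Slc25a15, Slc25a31, Slc25a33 and Slc25a36. The nuclear receptor core AGGTCA was in 16.3% of all windows and in 4 of the members' (Slc25a34, Slc25a39, Slc25a45 and Slc25a47), and the cAMP response element TGACGTCA in 1.79% and in 2 (Slc25a25 and Slc25a36). A direct repeat of AGGTCA with 1 base of any kind between the copies (0.0396% of all windows), the forkhead letters TGTTTAC (3.65%) and the D-box TTATGTAA (0.938%) were in no member window. Both strands were searched. Of the 19 members called in fasted wild type, 14 had a window, and the 5 with any of these motifs are printed with the motif in capitals, 5′ to 3′ on the strand of the gene. They are shown since they are the called carriers whose promoter holds a searched motif, and a match here describes letters only.
Slc25a47: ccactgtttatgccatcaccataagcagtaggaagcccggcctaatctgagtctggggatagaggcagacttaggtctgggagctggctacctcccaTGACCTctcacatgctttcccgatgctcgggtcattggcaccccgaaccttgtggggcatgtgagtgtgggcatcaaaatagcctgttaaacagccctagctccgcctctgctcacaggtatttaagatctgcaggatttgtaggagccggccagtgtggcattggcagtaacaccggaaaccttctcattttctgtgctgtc
Slc25a34: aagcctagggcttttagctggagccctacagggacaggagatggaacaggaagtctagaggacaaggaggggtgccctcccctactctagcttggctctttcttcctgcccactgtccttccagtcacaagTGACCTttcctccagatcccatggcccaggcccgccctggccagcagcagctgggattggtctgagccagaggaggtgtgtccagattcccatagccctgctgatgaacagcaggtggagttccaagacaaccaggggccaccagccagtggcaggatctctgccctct
Slc25a33: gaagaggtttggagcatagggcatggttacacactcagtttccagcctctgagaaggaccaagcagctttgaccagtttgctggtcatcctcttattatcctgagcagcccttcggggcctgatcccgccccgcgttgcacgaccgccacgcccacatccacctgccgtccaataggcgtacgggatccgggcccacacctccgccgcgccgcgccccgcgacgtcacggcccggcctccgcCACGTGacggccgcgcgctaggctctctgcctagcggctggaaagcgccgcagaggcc
Slc25a45: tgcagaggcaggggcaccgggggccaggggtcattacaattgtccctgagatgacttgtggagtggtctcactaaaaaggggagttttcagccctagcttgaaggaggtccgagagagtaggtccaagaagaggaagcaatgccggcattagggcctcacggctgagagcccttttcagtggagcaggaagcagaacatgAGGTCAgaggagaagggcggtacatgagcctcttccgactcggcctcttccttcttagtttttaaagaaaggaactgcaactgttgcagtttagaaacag
Slc25a1: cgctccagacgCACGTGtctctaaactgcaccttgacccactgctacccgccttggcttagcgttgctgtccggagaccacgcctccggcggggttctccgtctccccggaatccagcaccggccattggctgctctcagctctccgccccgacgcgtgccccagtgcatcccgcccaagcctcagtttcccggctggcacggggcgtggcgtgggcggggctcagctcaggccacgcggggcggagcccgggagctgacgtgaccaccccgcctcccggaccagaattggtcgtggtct
The windows lie at chr12:108850879-108851178 (plus strand), chr4:141623785-141624084 (minus strand), chr4:149774218-149774517 (minus strand), chr19:5877572-5877871 (plus strand) and chr16:17928170-17928469 (minus strand). In Slc25a47, Slc25a34 and Slc25a45 the capitals mark the nuclear receptor core, read on either strand, 153, 119 and 50 bases before the start. In Slc25a33 and Slc25a1 they mark the E-box, 8 and 239 bases before the start. Of these 5, Slc25a47, Slc25a34 and Slc25a33 rose in fasted wild type and Slc25a45 and Slc25a1 fell, so each of the 2 motifs stood in members of both directions.

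In knockout liver, fasting gave fewer calls. Of 39 members, 2 fell and none rose (all genes 1.68% called, 0.811% higher and 0.868% lower). In limma 11 members had an unadjusted p under 0.05, beside 19.2% of all genes. The median difference was 0.03 (all genes 0.01) and the median size 0.16 (all genes 0.17). Slc25a48 fell 1.97-fold (-0.98, SE 0.16, adjusted p = 0.0323). Slc25a44, the carrier of branched-chain amino acids, read 9.49 and 9.73 in fed and 8.99, 9.09 and 8.92 in fasted knockout, beside 9.52 and 9.61 in fed and 9.15, 8.95 and 9.21 in fasted wild type. Its fasted arrays lay below the fed arrays in both genotypes, and it fell 1.53-fold in knockout (-0.61, SE 0.12, adjusted p = 0.0466). The next smallest p values, not called, were those of Slc25a30 (1.39, SE 0.30, adjusted p = 0.0528), Slc25a23 (-0.50, adjusted p = 0.0678) and Slc25a20 (0.53, adjusted p = 0.0894). Fed and fasted knockout arrays did not overlap for 17 members (10 higher, 7 lower), beside 36.8% of all genes (18.3% higher, 18.5% lower).

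Both knockout calls were close to the threshold. Slc25a44 lost its call when any 1 of the 10 arrays was left out (adjusted p 0.0545 to 0.286). Slc25a48 lost it without fed knockout replicate 1 or 2, fasted wild type replicate 3 or fasted knockout replicate 1 or 3 (adjusted p 0.0525 to 0.201). Both calls were also lost without fasted knockout replicates 1 and 2 together, with Slc25a48 at -1.06 and Slc25a44 at -0.70.

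**Figure D3:**
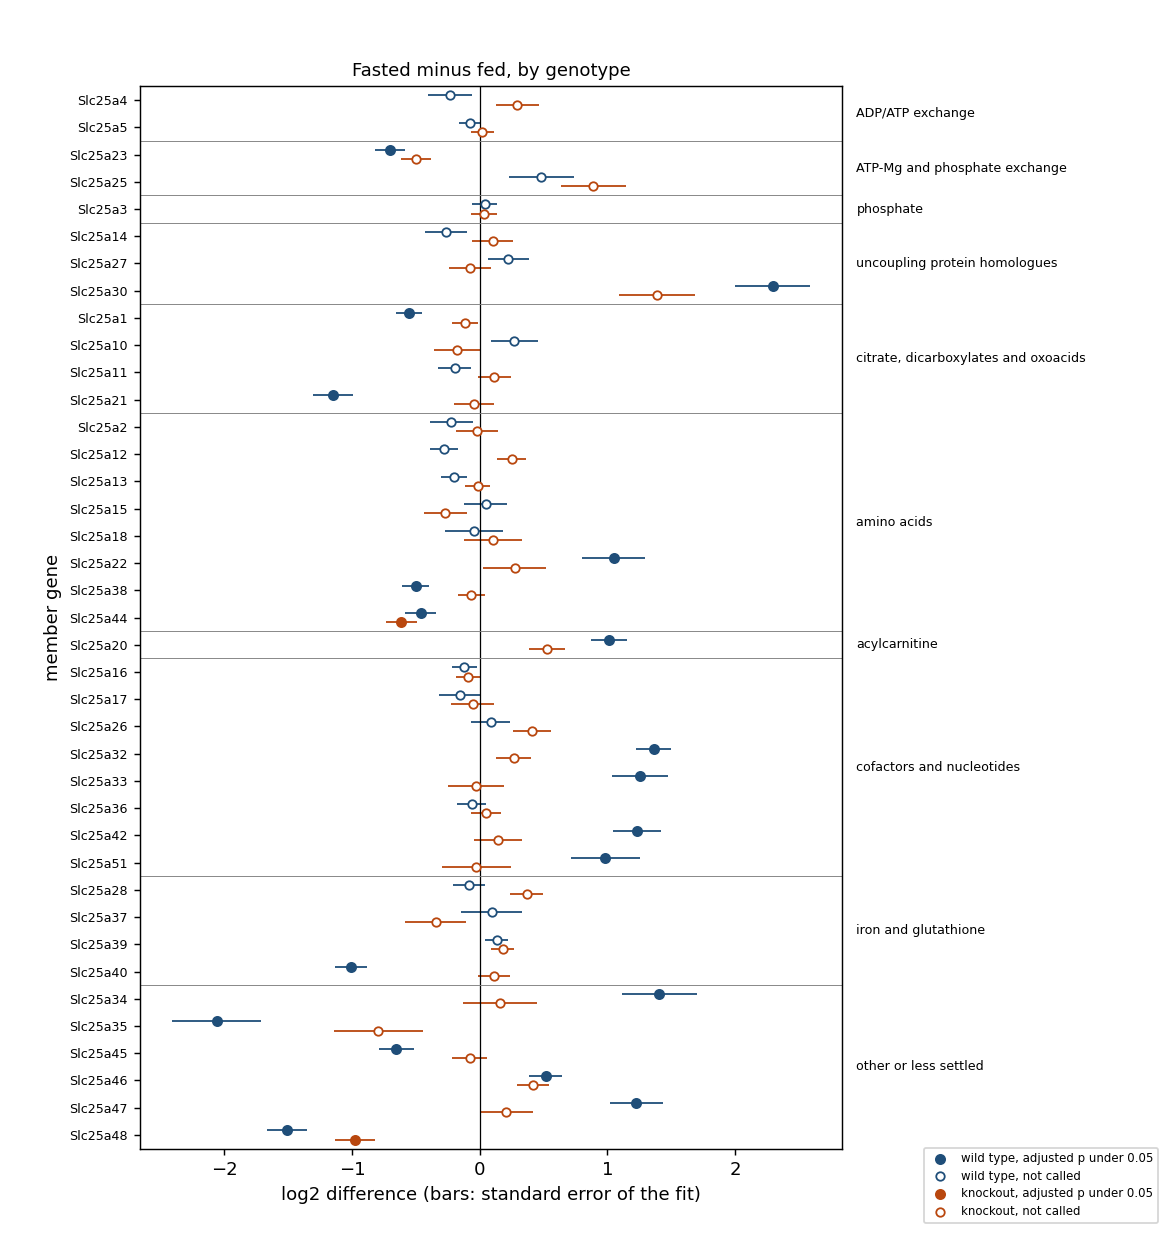
Points give the log2 difference of fasted minus fed for the 39 tested members by role, in wild type (blue) and knockout (orange), with the standard error of the fit as a bar and filled points at an adjusted p under 0.05. In wild type 19 points are filled and in knockout 2, those of Slc25a48 and Slc25a44.

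Set side by side, 18 of the 19 members called in fasted wild type had a smaller difference in knockout, the exception being Slc25a44. Since these members were chosen by the wild type response, this is a description. Their median size was 1.05 in wild type and 0.21 in knockout. The sign was the same for 16 members and opposite for 3, Slc25a33, Slc25a40 and Slc25a51. The difference itself was tested by the genotype by fasting interaction, the knockout difference minus the wild type difference, which called 2 members higher and 1 lower of 39 (all genes 2.11% called, 1.32% higher and 0.789% lower). These were Slc25a40 (1.12, SE 0.18, adjusted p = 0.0278), Slc25a21 (1.10, SE 0.22, adjusted p = 0.0426) and Slc25a32 (-1.10, SE 0.20, adjusted p = 0.0341). The per-array values show how: Slc25a21 and Slc25a40 fell in wild type and their knockout arrays overlapped between feeding states, and Slc25a32 rose in wild type from a level below that of fed knockout. The fed groups differed for the other members too. Fed knockout was below fed wild type by -0.44 for Slc25a40 and -0.23 for Slc25a21, neither called. For the other 16 members called in fasted wild type the interaction did not pass, among them Slc25a33 (-1.28, SE 0.31, adjusted p = 0.0638), Slc25a42 (-1.08, SE 0.27, adjusted p = 0.0684), Slc25a47 (-1.02, SE 0.29) and Slc25a34 (-1.25, SE 0.41).

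The interaction calls depended on single arrays. Slc25a40 was lost with 6 of the 10 arrays left out in turn (adjusted p 0.0544 to 0.0950), namely fed wild type 1, either fed knockout array, fasted wild type 2 or 3, or fasted knockout 1. Slc25a32 was lost with 8, all but fasted knockout 2 and 3 (0.0525 to 0.107), and Slc25a21 with 9, all but fasted knockout 3 (0.0511 to 0.127). Without fasted knockout replicates 1 and 2 together, the values were 0.93 for Slc25a40 (adjusted p = 0.0914), 0.97 for Slc25a21 (0.143) and -1.04 for Slc25a32 (0.0725). No member was called there.

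The place of each knockout array between the wild type means was read for the 19 members called in fasted wild type, with 0% at the fed and 100% at the fasted wild type mean. The members were chosen by the distance between these same means, which by itself tends to place other arrays between them. Places were not read for all genes, so they are a description. The median was 27.7% and 13.8% for fed knockout replicates 1 and 2, and 43.6%, 60.1% and 69.5% for fasted knockout replicates 1, 2 and 3. Fasted knockout replicate 1 was nearer to fasted wild type for 7 of 19 members, replicate 2 for 13 and replicate 3 for 15, and the fed knockout arrays for 2 each. Replicates 1 and 2, which had similar clock scores, differed in this median, and the part of the clock state in these positions was not tested. The 4 members nearer to the fed wild type level on replicate 3 were Slc25a21, Slc25a38, Slc25a42 and Slc25a51.

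**Figure D4:**
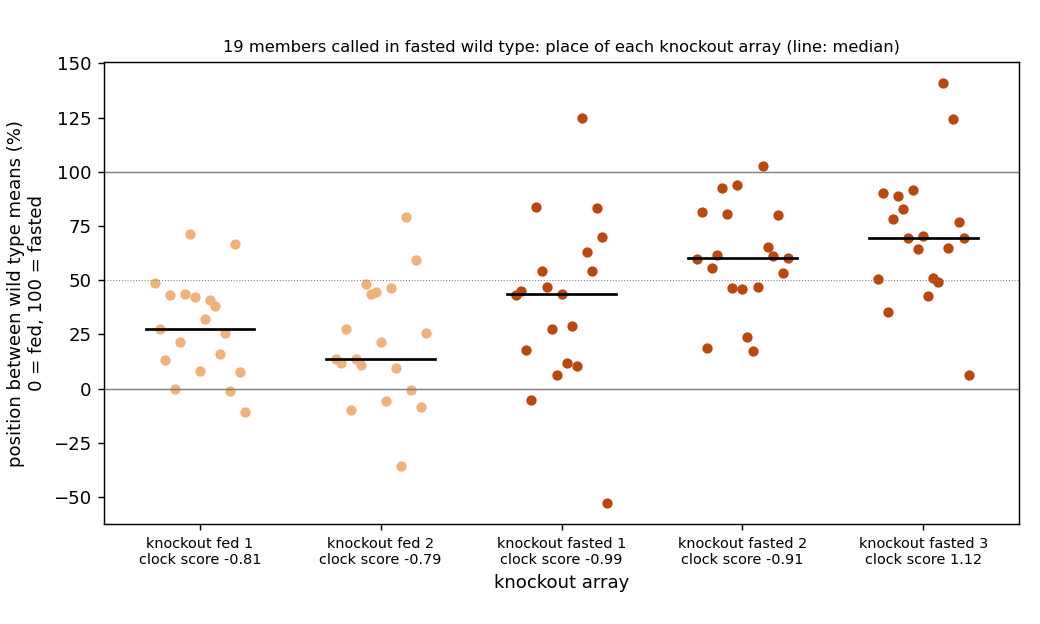
Each point is 1 of the 19 members called in fasted wild type, placed on each knockout array between the fed (0%) and the fasted (100%) wild type mean, with a line at the median of an array and its clock score below. The medians are 27.7% and 13.8% for the fed and 43.6%, 60.1% and 69.5% for the fasted knockout arrays. The members were chosen by the distance between these same means, so the places are a description.

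Between genotypes, fasted livers differed in 9 of 39 members, 6 higher and 3 lower in knockout (all genes 11.1% called, 6.68% higher and 4.43% lower). The median difference was 0.02 (all genes 0.01) and the median size 0.28 (all genes 0.19). The arrays did not overlap for 21 members (15 higher, 6 lower), beside 33% of all genes (17.9% higher, 15.1% lower). This comparison shares the fasted wild type arrays with the fasting comparison, so the values are given for their own sake.

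The 3 lower members all carry cofactors: Slc25a51 (NAD; -0.94, SE 0.24, adjusted p = 0.0373), Slc25a42 (coenzyme A; -0.79, SE 0.17, adjusted p = 0.0208) and Slc25a32 (folate; -0.47, SE 0.12, adjusted p = 0.0407). The remaining 5 of the 8 cofactor and nucleotide carriers were not called. Higher in fasted knockout were the oxodicarboxylate carrier Slc25a21 (0.87, SE 0.14, adjusted p = 0.0089) and Slc25a40 (0.68, SE 0.11, adjusted p = 0.0094). Slc25a48 (0.54, SE 0.14, adjusted p = 0.0388) and the glycine carrier Slc25a38 (0.37, SE 0.09, adjusted p = 0.0366) were also higher. The other higher members were Slc25a12 and Slc25a4, which belong to pairs of close relatives.

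In each of 3 such pairs the relatives were set side by side. Slc25a12, the aspartate/glutamate carrier known from muscle and brain, read 8.26, 8.37 and 8.53 for fasted wild type against 8.88, 8.75 and 8.92 for fasted knockout, and 8.69 and 8.64 for fed wild type against 8.64 and 8.56 for fed knockout. It was higher in fasted knockout (0.47, SE 0.10, adjusted p = 0.0212), with no overlap. Its relative Slc25a13, the liver carrier citrin, read 10.66, 10.73 and 10.64 for fasted wild type against 10.96, 11.07 and 10.89 for fasted knockout, and 10.89 and 10.87 for fed wild type against 10.94 and 11.03 for fed knockout. It did not overlap either, but was not called (0.30, SE 0.09, adjusted p = 0.0606). Both members of this pair thus lay higher on the fasted knockout arrays, and a difference between them was not tested.

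Slc25a4, the ADP/ATP carrier of heart and muscle, read 6.14, 6.53 and 6.03 for fasted wild type against 6.96, 6.67 and 6.73 for fasted knockout, and 6.51 and 6.42 for fed wild type against 6.67 and 6.31 for fed knockout. It was higher in fasted knockout (0.55, SE 0.15, adjusted p = 0.0472). No muscle marker lay above the median on all arrays. Slc25a5, the ADP/ATP carrier of most other tissues, read 11.61 on all 3 fasted wild type arrays, 11.63, 11.62 and 11.63 on the fasted knockout arrays, 11.72 and 11.65 when wild type was fed and 11.59 and 11.62 when knockout was fed, which is nearly the same value throughout.

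Among the mitoferrins, Slc25a28 read 8.94, 8.85 and 8.66 for fasted wild type against 9.14, 9.02 and 9.28 for fasted knockout, and 8.94 and 8.86 for fed wild type against 8.88 and 8.68 for fed knockout. The fasted knockout arrays were the highest, but the difference was not called (0.33, SE 0.11, adjusted p = 0.0915). Slc25a37, the mitoferrin of developing red cells, read 8.75, 8.78 and 9.08 for fasted wild type against 9.06, 9.10 and 8.36 for fasted knockout, and 8.53 and 9.02 for fed wild type against 9.08 and 9.30 for fed knockout. Its groups overlapped.

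Of the 9 calls between fasted genotypes, those of Slc25a21 and Slc25a40 held with any single array left out. Of the 9, 2 remained called without fasted knockout replicate 1, 3 without fasted wild type replicate 3 or without its replicate 1, and 5 without fasted wild type replicate 2, either fed knockout array or fasted knockout replicate 3. With newly called members included, the counts without fasted wild type replicate 1 and fasted knockout replicate 3 were 5 and 7. Slc25a42 was lost without fasted knockout replicate 1 or fasted wild type replicate 3 (adjusted p 0.0733 to 0.0738) and Slc25a12 without fasted knockout replicate 1 or fasted wild type replicate 1 or 2 (0.0602 to 0.0743). Slc25a38 was lost without any fasted wild type array or without fasted knockout replicate 1 or 2 (0.0702 to 0.122). Slc25a48 was lost with 7 arrays, all but the fed wild type arrays and fasted wild type replicate 2 (0.0508 to 0.121). Slc25a51 (0.0504 to 0.115) and Slc25a32 (0.0556 to 0.119) were lost with all but fasted knockout replicate 2, and Slc25a4 with all but fasted wild type replicate 2 (0.0522 to 0.163). Without fasted knockout replicates 1 and 2 no member was called. The differences were then 0.74 for Slc25a21 (adjusted p = 0.141), 0.49 for Slc25a40 (0.141), -0.62 for Slc25a42 (0.197), 0.53 for Slc25a12 (0.130), -0.92 for Slc25a51 (0.0882), 0.29 for Slc25a38 (0.313), 0.46 for Slc25a48 (0.282), -0.42 for Slc25a32 (0.168) and 0.49 for Slc25a4 (0.295). In that fit the lone fasted knockout array is assumed to vary like the other groups. With the clock score as a covariate no member was called either. Slc25a12 was then at 0.52 (0.47 without the score), and every other called member had a smaller difference than without it. Among these were Slc25a21 at 0.75 (0.87 without it), Slc25a51 at -0.91 (-0.94), Slc25a42 at -0.62 (-0.79) and Slc25a40 at 0.53 (0.68). Here too the slope of the score rests mostly on the fasted knockout arrays, so the part of the clock was not tested.

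The macrophage sum was 11.74 to 11.91 in fasted knockout and 11.47 to 11.55 in fasted wild type. Of 7 macrophage markers, 4 were called higher and none lower in knockout, beside 11.1% of all genes called. Of 6 sinusoidal endothelium markers, 1 was called lower and none higher. The B cell sum was 6.19 to 6.91 in fasted knockout against 5.07 to 5.61 in fasted wild type, but no B cell marker was bright enough to be tested. The cholangiocyte sum was 7.92 to 8.04 against 8.13 to 8.26, with 1 of 4 markers above the median on all arrays. The stellate cell sum was 12.53 to 12.56 against 12.56 to 12.59, barely apart, while the hepatocyte sums overlapped (15.30 to 15.42 and 15.39 to 15.43). Among all genes, the arrays of 33% did not overlap between fasted genotypes. The part of these cell types in the genotype differences was not tested.

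In fed livers no member was called between genotypes (all genes 0.0861% called, 0.0574% higher and 0.0287% lower). Limma gave 6 members an unadjusted p under 0.05, beside 8.63% of all genes. The arrays did not overlap for 19 members (10 higher, 9 lower), beside 39.9% of all genes (16.2% higher, 23.7% lower). The smallest p values were those of Slc25a32 and Slc25a47. Slc25a32 was higher by 0.63 in fed knockout (SE 0.15, 95% interval 0.29 to 0.97, adjusted p = 0.232), and Slc25a47 by 0.77 (SE 0.23, 95% interval 0.26 to 1.28, adjusted p = 0.35). Their arrays, given above, did not overlap between fed genotypes. For Slc25a47 the adjusted p was 0.0454 without fed wild type replicate 1, the single omission that gave a call, where the difference was 1.19. Without fed wild type replicate 2 it was 0.36 (adjusted p = 0.645). Both intervals exclude 0, but neither difference passed the adjustment over all tested genes. With 2 arrays a group, differences of this size or smaller may have gone uncalled.

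**Figure D5:**
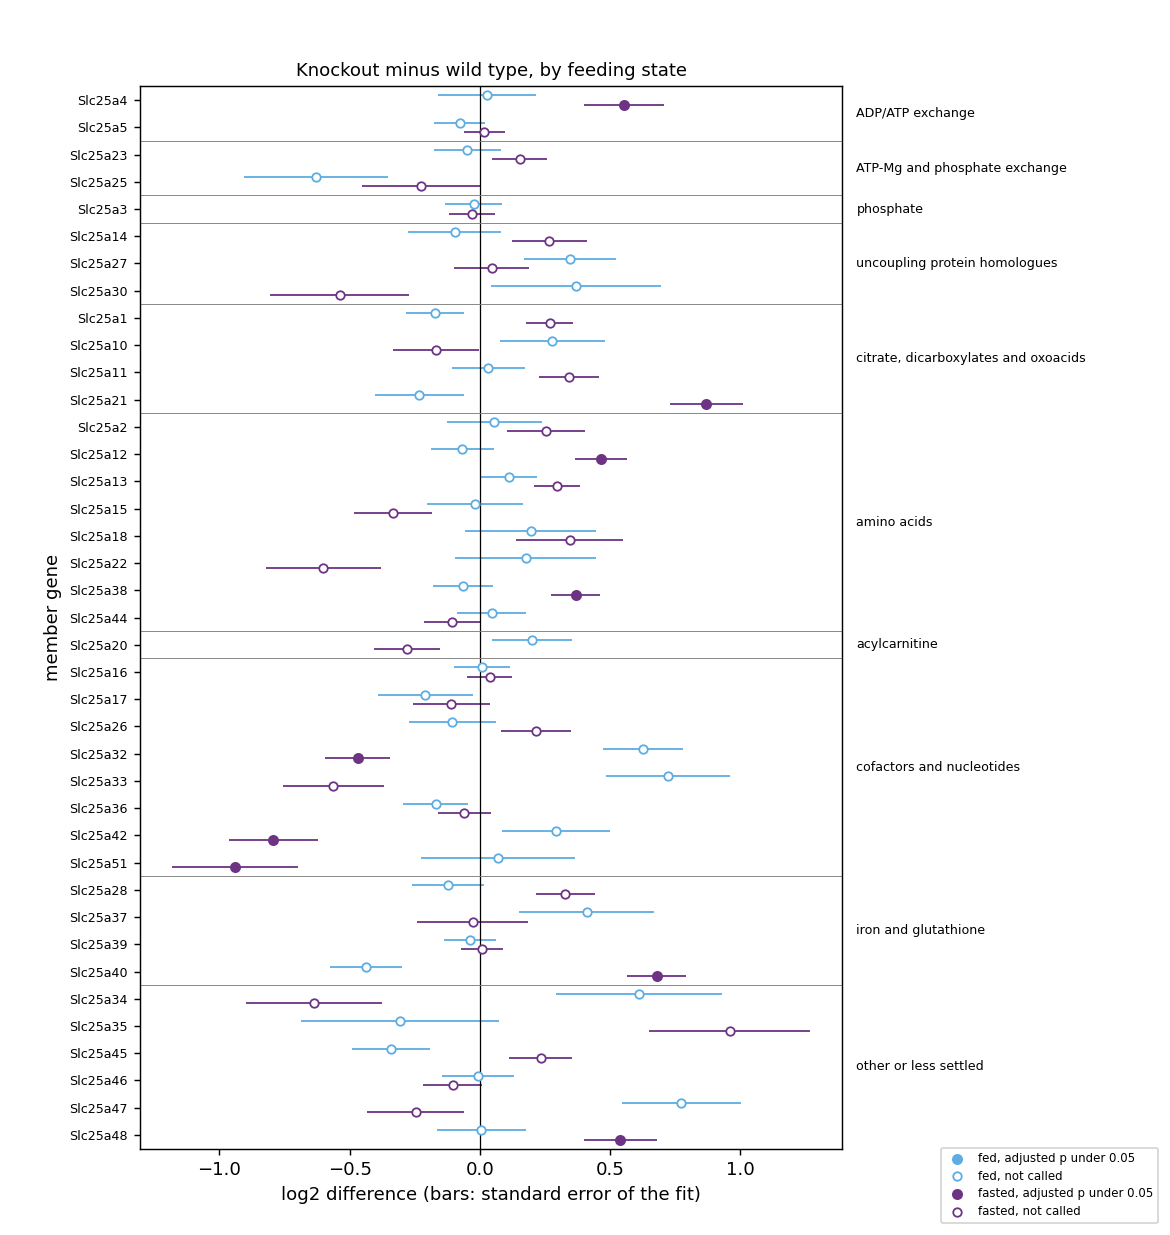
Points give the log2 difference of knockout minus wild type for the 39 tested members by role, in fed (light blue) and fasted (purple) liver, with the standard error of the fit as a bar and filled points at an adjusted p under 0.05. No fed point is filled, and 9 fasted points are, 6 above 0 and 3 below, the 3 below belonging to carriers of cofactors.

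Genes that work with the carriers were read from lists chosen by function. Of 19 tested partners (shuttle enzymes, carnitine palmitoyltransferases, pyruvate, serine and calcium transporters and porins), 3 rose and 2 fell in fasted wild type, a share near the 21.4% of all genes. Cpt1a and Cpt2, the enzymes on either side of the acylcarnitine carrier, rose by 0.49 (SE 0.12, adjusted p = 0.0188) and 0.79 (SE 0.13, adjusted p = 0.0030). Gpd2 of the glycerol phosphate shuttle rose by 0.56 (SE 0.14, adjusted p = 0.0189). Micu2, a regulator of the calcium uniporter, fell by 1.32 (SE 0.19, adjusted p = 0.0018), and Sfxn5, a sideroflexin, fell by 0.70 (SE 0.12, adjusted p = 0.0041). In fasted knockout against fasted wild type, Micu2 was higher (1.13, SE 0.17, adjusted p = 0.0074) and Gpd2 lower (-0.48, SE 0.12, adjusted p = 0.0384), beside 11.1% of all genes called. Without fasted knockout replicates 1 and 2 they were at 0.92 (adjusted p = 0.117) and -0.50 (adjusted p = 0.202). In knockout no partner was called after fasting, nor between genotypes in fed liver.

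Carriers reach the inner membrane through the outer membrane receptors, the small chaperones of the intermembrane space and the TIM22 complex. Of 13 tested genes of this route, Timm9, a small chaperone, rose in fasted wild type (1.09, SE 0.15, adjusted p = 0.0017), and Agk, a TIM22 subunit and lipid kinase, fell (-0.75, SE 0.15, adjusted p = 0.0067). These 2 of 13 are a share below the 21.4% of all genes called. Timm9 also rose in fasted knockout (0.81, SE 0.15, adjusted p = 0.0436), as did Timm8a1 (1.01, SE 0.20, adjusted p = 0.0440), beside 1.68% of all genes. Without fasted knockout replicates 1 and 2, Timm9 was at 1.05 (adjusted p = 0.0491) and Timm8a1 at 1.16 (adjusted p = 0.0845). Between fasted genotypes, Agk alone of the 13 was called, higher in knockout (0.65, SE 0.13, adjusted p = 0.0170), beside 11.1% of all genes. It did not keep its call without those replicates (0.48). For comparison, of 17 tested genes of the tricarboxylic acid cycle, Cs (citrate synthase) alone rose in fasted wild type (0.49, SE 0.11, adjusted p = 0.0133), again a share below 21.4%. Of the 17, 2 were called lower in fasted knockout than in fasted wild type, Cs (-0.42) and Ogdh (-0.45), a share near the 11.1% of all genes. Neither kept its call without those replicates (-0.28 and -0.50). Relatives with other symbols, Mtch1 (-0.11) and Mtch2 (0.20), were not called in fasted wild type, and Ucp1 and Ucp3 were too dim to test.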

How the data were processed

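The values are log-transformed from intensity, as deposited by the authors: a linear, normalized number for each of 41345 probe sets on each of 10 arrays. Per the submitters' processing notes, Affymetrix Expression Console and RMA were used, with the genome build not given in the sources used here. From 228 to 489 values an array were smaller than 0.1, rare for a plain RMA summary, so the exact summary is unknown. The platform table gave 23521 probe sets 1 gene symbol, 1814 several and the rest none, and those with 1 symbol were used.

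The log2 of each value was taken with no further normalization. The brightest probe set stood for its gene, and 13942 genes above the array median (50th percentile) on at least 2 arrays were fitted in limma 3.58.1 (R 4.3.3) with 4 group means over all 10 arrays and empirical Bayes moderation. Adjustment was by Benjamini-Hochberg across the genes of each of 5 contrasts, with calls under 0.05. Scripts were tested on simulated data. The number of arrays limits the precision.

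Per-array values are given for the 10 largest called members in fasted wild type, up to 4 in each other contrast, and 3 pairs of relatives; where none was called, for the 2 with the smallest p. The values of Slc25a20 were added after they had been seen. Members, gene lists and roles were chosen with earlier results of these data known. No column was left unmapped. No batch is given in the labels, so none was modelled. Promoter windows came from RefSeq, and no protein sequence was used.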

Additional observations from a re-analysis of the deposited data

Results flagged for a closer look

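The response to fasting was called different between genotypes for 3 of 39 members, beside 2.11% of all genes. The test was the genotype by fasting interaction in limma (knockout difference minus wild type difference, all 10 arrays). The interaction was 1.12 for Slc25a40 and 1.10 for Slc25a21, both of which fell in fasted wild type, and -1.10 for Slc25a32, which rose there. None of these calls was firm. Over 20 alternatives the call was lost in 8 for Slc25a40, in 14 for Slc25a21 and in 12 for Slc25a32. The fasted knockout arrays that enter these values differ in their clock score. Fits with that score and without replicates 1 and 2 were run, but the part of the clock was not tested.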

How the results depend on the processing

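No called difference of a member changed its direction under any alternative run. Among members not called, 6 of 20 changed sign at least once in the fasting comparison of wild type, 16 of 37 in that of knockout, 9 of 30 between fasted and 16 of 39 between fed genotypes, and 7 of 36 in the interaction, so their signs are not settled. The number of members called after fasting in wild type was 19 and moved to 12 with the clock score as a covariate, and lay between 12 and 19 with 1 array left out. After fasting in knockout it was 2, and became 0 with no filter, with the replicate block, with the clock score, with only the groups of the contrast and without fasted knockout replicates 1 and 2, and 4 with the filter at the 70th percentile or with trend and robust moderation; it was 0 to 2 with 1 array left out. The interaction called 3 members, 0 with no filter and without those replicates, 1 with the replicate block and with the clock score, 5 at the 70th percentile and 6 with trend and robust moderation, and 0 to 4 with 1 array left out. Between fasted genotypes it was 9, then 2 with no filter, 5 with the replicate block, 4 with only the groups of the contrast, 0 with the clock score and 0 without those replicates, and 2 to 7 with 1 array left out. Between fed genotypes it was 0 throughout, and 1 without fed wild type replicate 1. Causes of these moves were not tested, except that the fits with fewer arrays or groups have fewer samples and the fit with no filter tests more genes.

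Whether replicate numbers pair the samples was not settled. Over 13 pairs of arrays with the same number, the correlation of deviations lay between -0.17 and 0.11, with 1 over 0.1. The deviations of the 2 arrays of a fed group mirror each other, so values from pairs with fed arrays are not independent. Fasted pairs of the same number were at 0.091, 0.055 and 0.015, and 3 of 6 fasted arrays correlated best with their own number. With the replicate block the fasting count in wild type was 17. A block with the numbers crossed, chosen after seeing the data, left the fed count at 0. Probe sets near the array median, and 2 arrays per fed group, limit what could be seen.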
